A study of Homo sapiens with 4 samples.

Results

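Tissue inhibitors of metalloproteinases (TIMPs) and 5 matrix metalloproteinases (MMPs) were followed in HT-29 and DLD-1, both established human colorectal cancer lines, with and without 5-aza-2'-deoxycytidine. The set comprised TIMP1, TIMP2, TIMP3 and TIMP4 together with MMP1, MMP2, MMP7, MMP9 and MMP14. Every array spot whose platform gene symbol was one of these names was taken, which gave 11 of the 29640 probes that were not controls and 9 of the 13015 named genes. TIMP2 and TIMP3 had 2 probes each and the other 7 genes had 1. The groups were HT-29 cells exposed to 1 µM of the drug for 96 h after 24 h of culture, untreated HT-29 cells, DLD-1 cells exposed in the same way, and untreated DLD-1 cells. All were grown in RPMI1640 with fetal bovine serum, and neither line was labelled as carrying an engineered allele. Treated and untreated RNA of each line were hybridised together on 2 two-colour oligonucleotide arrays, array 1 with treated RNA in Cy5 and array 2 with the dyes exchanged. Separate cultures are not named in the labels. Both arrays of a line therefore made 1 replicate. The p-values rest only on the spread between these samples, taken over all genes, and that spread may be technical. Cells were measured in bulk, where fewer expressing cells and less RNA per cell cannot be told apart.

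MMPs are zinc-dependent endopeptidases that cleave extracellular matrix and cell-surface proteins. Most are secreted as inactive proenzymes and MMP14 sits in the cell membrane. TIMPs bind the active site of these enzymes and block it, and TIMP2 also takes part with MMP14 in the activation of proMMP2. In the intestine MMP7, or matrilysin, is made by epithelial cells, whereas MMP2, MMP9 and TIMPs are often made by stromal cells and leukocytes. 5-aza-2'-deoxycytidine is incorporated into DNA, traps DNA methyltransferases there and lowers CpG methylation as cells divide. The series addressed which genes rise after this treatment in colorectal cancer lines, and TIMP3 is a textbook example of a gene silenced by promoter methylation in tumours.

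The promoters of TIMP1, TIMP3 and MMP7 are shown because the drug acts on CG dinucleotides and these 3 promoters span the range from many to few. They are RefSeq sequences of GRCh38.p14, each from 250 bases before to 50 bases after the start of the gene, 5′ to 3′ on the gene's strand, with every CG in capitals.
TIMP1, chrX:47582186-47582485, plus strand: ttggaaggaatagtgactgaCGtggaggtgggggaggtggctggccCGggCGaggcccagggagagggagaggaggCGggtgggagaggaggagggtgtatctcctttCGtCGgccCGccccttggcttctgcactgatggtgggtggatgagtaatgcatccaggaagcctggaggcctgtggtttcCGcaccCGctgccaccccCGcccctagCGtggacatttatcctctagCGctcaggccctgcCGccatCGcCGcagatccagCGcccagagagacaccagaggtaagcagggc
TIMP3, chr22:32801455-32801754, plus strand: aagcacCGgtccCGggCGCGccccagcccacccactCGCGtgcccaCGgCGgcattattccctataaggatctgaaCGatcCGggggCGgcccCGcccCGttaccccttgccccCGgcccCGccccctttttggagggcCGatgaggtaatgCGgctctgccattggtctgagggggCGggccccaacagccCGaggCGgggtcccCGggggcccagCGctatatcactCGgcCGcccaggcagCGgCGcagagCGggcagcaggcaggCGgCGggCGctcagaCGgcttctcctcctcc
MMP7, chr11:102530698-102530997, minus strand: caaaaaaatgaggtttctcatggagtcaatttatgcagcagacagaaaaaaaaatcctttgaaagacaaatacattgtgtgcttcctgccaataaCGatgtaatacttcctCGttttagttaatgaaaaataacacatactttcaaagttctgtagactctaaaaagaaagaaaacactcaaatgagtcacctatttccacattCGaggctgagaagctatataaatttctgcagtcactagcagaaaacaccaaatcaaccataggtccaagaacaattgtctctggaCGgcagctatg
TIMP3 held 31 CG dinucleotides, TIMP1 16 and MMP7 4, against a median of 14 over the 35114 promoters of the table. At least as many were found in 20.6% of promoters for TIMP3, 47.5% for TIMP1 and 75.5% for MMP7. TIMP4, which held 12, and MMP14, which held 10, were the other members with a promoter sequence. Methylation itself was not analysed here, so these counts describe the sequence alone.

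Both strands of these windows were searched for TGAGTCA, the binding site of AP-1 (Fos and Jun proteins), for the variant TGAGTAA, for the TATA box TATAAA and for the GC box GGGCGG bound by Sp1. MMP7 held TGAGTCA beginning 67 bases before the start, within aaacactcaaaTGAGTCAcctatttccac, where the motif is in capitals. TGAGTCA occurred in 4.95% of all promoters. MMP7 also held TATAAA beginning 30 bases before the start, a motif found in 11.5% of promoters. TIMP1 held TGAGTAA beginning 101 bases before the start, within tggtgggtggaTGAGTAAtgcatccagga, and 2.57% of promoters held that variant. GC boxes, present in 45% of promoters, numbered 5 in TIMP3, 2 in TIMP1 and 1 each in TIMP4 and MMP14, and MMP7 had none in this window. Some of the 5 in TIMP3 lie close together and on opposite strands. By gene order in the same annotation, TIMP1 lies within SYN1, TIMP3 within SYN3 and TIMP4 within SYN2, genes of the synapsin family. MMP7 stands first in a run of 9 MMP genes on chromosome 11 that ends with MMP13 and includes MMP1.

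Each array had 30336 spots, and at least 1 channel was above background at 22104 to 25825 probes. A channel was taken as above background when it was brighter than the surrounding background plus 2 SD of that background. Negative control spots passed that limit in at least 1 channel at 8.33% to 13.5%, so passing it is weak evidence of expression. File channel 2 was read as treated on all 4 arrays, which puts the higher median background on the Cy3 side of each. The labels list treated RNA as channel 1 on array 2 of each line, and the file columns name no dye, so the direction on array 2 is not settled. Array 1 of each line has the same direction under both readings. Values in the labels' order are given for the tested members, for MMP1, MMP7 and MMP9, and for list medians and some list genes. With file channel 2 read as treated, r between arrays 1 and 2 of DLD-1 was -0.45 for the log2 ratios. For HT-29 it was 0.00. Each r covers 18868 probes, which are not independent replicates. In the labels' order array 2 turns its sign, so the DLD-1 r becomes positive with the same size. The DLD-1 arrays therefore oppose each other under 1 reading only. Between the lines r was 0.51 for array 1 of each and -0.20 for array 2 of each, under both readings. The first arrays of different lines were thus more alike than the arrays of 1 line. In the labels' order the DLD-1 arrays came close to that likeness. Position in the 48 printed blocks accounted for 23.2% to 49.7% of the variance of the ratios. With 4 arrays, precision is limited by their number. On a single array both channels were above background at 19549 to 22979 of the 29640 probes. The marker counts that follow are therefore not read as a result about cell types. Of 11 colorectal epithelium markers, 9 were above background in both channels of both arrays in HT-29 and 8 in DLD-1, while CDX1 and CDH17 were not in either line. Of 10 fibroblast markers 9 were on the array and 6 passed in each line. Of 6 leukocyte markers 4 passed in HT-29 and 5 in DLD-1. Of 4 endothelium markers 3 were on the array, and 1 passed in HT-29 and 2 in DLD-1. Their part in the results was not tested.

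**Figure D1:**
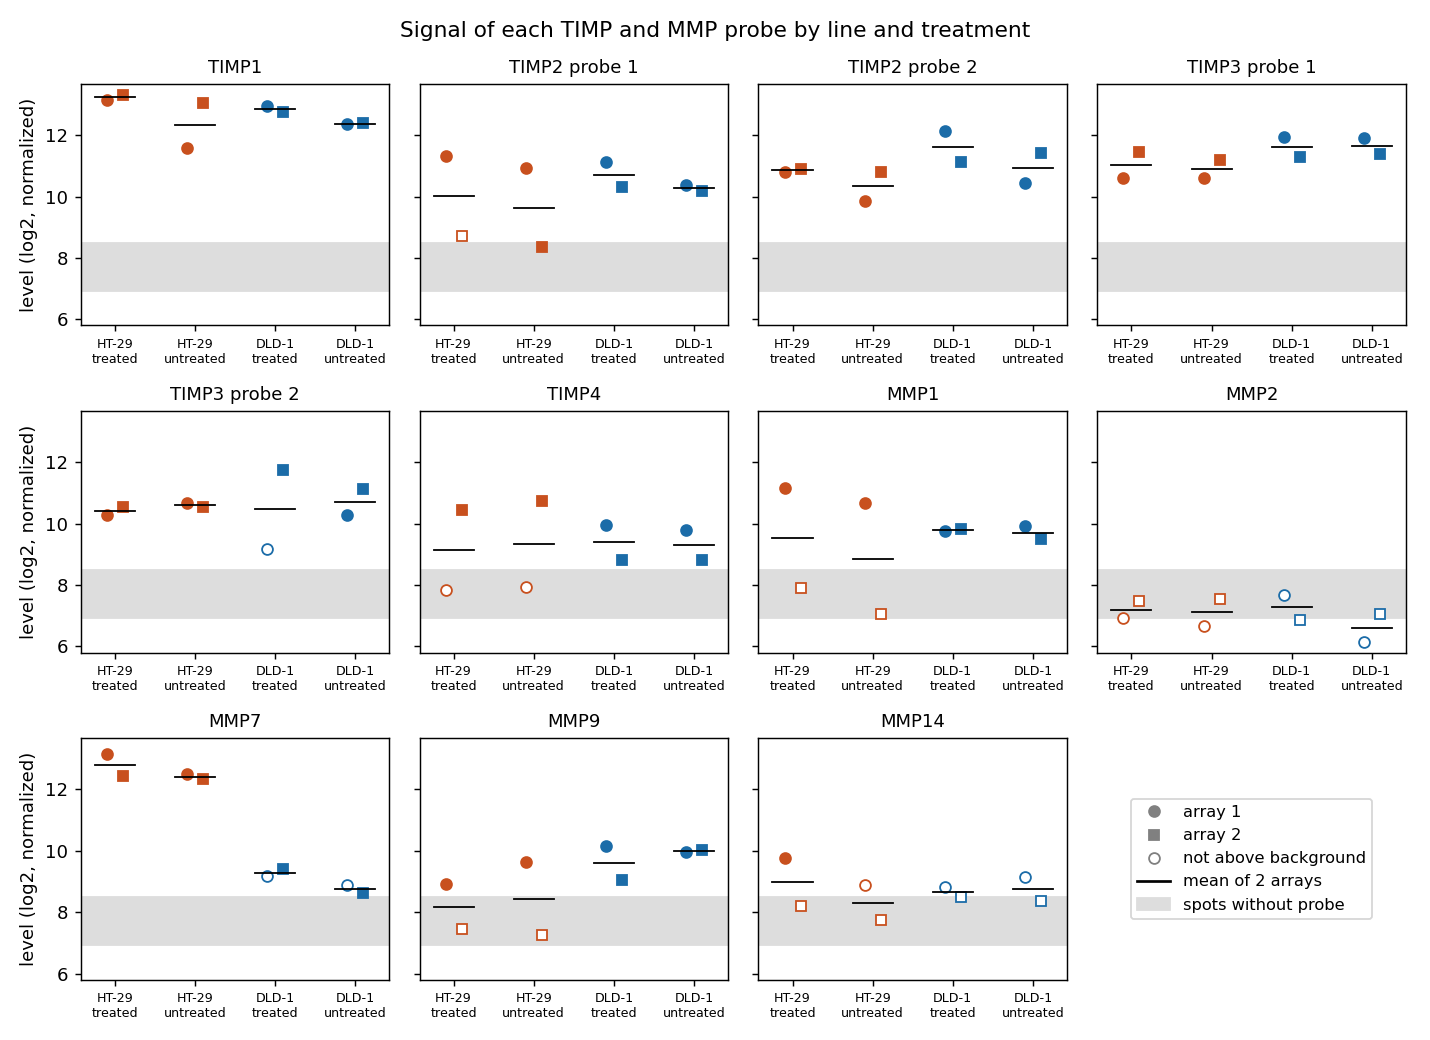
Normalised log2 level of each of the 11 TIMP and MMP probes (vertical axis) in treated and untreated cells of HT-29 (orange) and DLD-1 (blue), with circles for array 1, squares for array 2, open symbols for channels not above background, black lines for the mean of the 2 arrays, and a grey band from the lowest median to the highest 95th percentile of spots without a probe. Negative control spots, not drawn, had 95th percentiles of 9.0 to 10.03, so a symbol above the band can still lie within their range. MMP7 stands at 12.34 to 13.14 in HT-29 and at 8.62 to 9.40 in DLD-1, and MMP2 has open symbols in every group.

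TIMP1, a secreted inhibitor of many MMPs that also promotes growth of some cells, gave a bright signal in both lines. Its probe was AGhsA120305. In HT-29 the scanner intensity was 5888 in treated and 2210 in untreated cells on array 1, and 11010 in treated and 10850 in untreated cells on array 2. In DLD-1 it was 11370 in treated and 6313 in untreated cells on array 1, and 6030 in treated and 5605 in untreated cells on array 2. After background correction and loess the log2 ratio of treated over untreated was 1.56 and 0.27 on HT-29 arrays 1 and 2, and 0.60 and 0.36 on DLD-1 arrays 1 and 2. With file channel 2 read as treated, the treated channel was the brighter on 4 of 4 arrays, by most on HT-29 array 1. In the labels' order array 2 stood at -0.27 in HT-29 and -0.36 in DLD-1, so this held under 1 reading only. Line means were 0.91 ± 0.91 in HT-29, a 1.88-fold ratio, and 0.48 ± 0.17 in DLD-1, a 1.40-fold ratio (SD, n = 2 hybridisations of 1 replicate each).

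Over both lines the mean log2 ratio of TIMP1 was 0.70 with an SE of 0.216 and a 95% confidence interval of 0.27 to 1.12. The fit took 1 variance for all genes, so every gene has this SE. The SEs and intervals of TIMP1, TIMP2 and TIMP3 therefore do not measure the spread of that gene's own arrays. TIMP1 did not pass limma's test over all 9102 genes tested, with an unadjusted p of 0.00123 and a Benjamini-Hochberg adjusted p of 0.213. A mean at least this high was found for 41 genes, and the median of all genes tested was 0.0073. With array 2 in the labels' order the mean was 0.38, with an adjusted p of 0.557 by limma, from 0.65 in HT-29 and 0.12 in DLD-1. In the authors' deposited log2 ratio, turned to treated over untreated, TIMP1 stood at 1.54 and -0.17 on the HT-29 arrays and at 0.54 and 0.24 on the DLD-1 arrays. Thus HT-29 array 2 changed sign with that normalisation. Colorectal epithelium markers had a median log2 ratio of 0.28 over the 8 tested, 0 called by limma and 3 at an unadjusted p under 0.05. Over all 9102 genes tested 456 had an unadjusted p under 0.05 by limma. The highest marker means over both lines were 0.69 for KRT8, 0.69 for KRT20 and 0.44 for CDH1. The lowest were 0.10 for KRT18, 0.12 for EPCAM and 0.18 for CDX2. CDH1 stood at 1.27 and -0.99 on DLD-1 arrays 1 and 2. In the labels' order the means were 0.37 for KRT8, 0.19 for KRT20, 0.82 for CDH1, 0.47 for KRT18, -0.23 for EPCAM and -0.30 for CDX2. The part of these markers in the TIMP1 result was not tested.

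TIMP2, which binds MMP14 and proMMP2, was measured by AGhsB140509 (probe 1) and AGhsB210302 (probe 2). Probe 1 had log2 ratios of 0.39 and 0.38 on the HT-29 arrays and of 0.72 and 0.12 on the DLD-1 arrays. Probe 2 had 0.95 and 0.09 on the HT-29 arrays and 1.69 and -0.29 on the DLD-1 arrays. On DLD-1 array 1, where probe 2 was the farthest from 0 of any member probe, its intensity was 5123 in treated and 1362 in untreated cells. On DLD-1 array 2 the same probe gave 2376 in treated and 2636 in untreated cells. The 2 arrays of that line thus pointed in opposite directions with file channel 2 read as treated. In the labels' order array 2 stood at 0.29, the same direction as array 1. Averaged over its probes TIMP2 was 0.46 ± 0.31 in HT-29 and 0.56 ± 0.91 in DLD-1 (SD, n = 2 hybridisations). Over both lines the mean was 0.51, SE 0.216, with a 95% confidence interval of 0.09 to 0.93, and the adjusted p of limma was 0.721. In the labels' order it was 0.43, with an adjusted p of 0.494 by limma.

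TIMP3, which is bound to the matrix and also inhibits ADAM17, had the most CG dinucleotides of the 5 promoters, and its mean over both lines lay close to 0. Probe 1, AGhsA121315, had ratios of 0.00 and 0.25 on the HT-29 arrays and of 0.02 and -0.09 on the DLD-1 arrays. Its intensity was 824 in treated and 990 in untreated cells on HT-29 array 1, and 5252 in treated and 3548 in untreated cells on HT-29 array 2. In DLD-1 it was 5187 in treated and 4502 in untreated cells on array 1, and 2660 in treated and 2584 in untreated cells on array 2. TIMP3 probe 1 was therefore above background in untreated cells of both lines on every array. Probe 2, AGhsB201624, had ratios of -0.39 and -0.01 on the HT-29 arrays and of -1.10 and 0.64 on the DLD-1 arrays. The DLD-1 arrays of probe 2 had opposite signs with file channel 2 read as treated, but array 2 was -0.64 in the labels' order. The treated channel of probe 2 on DLD-1 array 1 was not above background. The medians of all probes in its printed block were -0.58 and 0.40 on DLD-1 arrays 1 and 2, of the same signs as the probe, and the part of position in the result was not tested. Over both lines TIMP3 averaged -0.08, SE 0.216, with a 95% confidence interval of -0.51 to 0.34 and an adjusted p of 0.994 by limma. In the labels' order it was -0.28.

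TIMP4, an inhibitor best known from heart and brain, was not measured on every array and was left out of the test. Its probe, AGhsA230314, had an intensity of 57.4 in treated and 319 in untreated cells on HT-29 array 1, neither above background, but 3412 in treated and 3232 in untreated cells on HT-29 array 2. In DLD-1 the intensity was 1111 in treated and 720 in untreated cells on array 1, and 666 in treated and 354 in untreated cells on array 2. The 2 HT-29 arrays disagree about whether the gene had a signal at all. Its log2 ratios were -0.11 and -0.30 on the HT-29 arrays and 0.17 and 0.01 on the DLD-1 arrays.

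**Figure D2:**
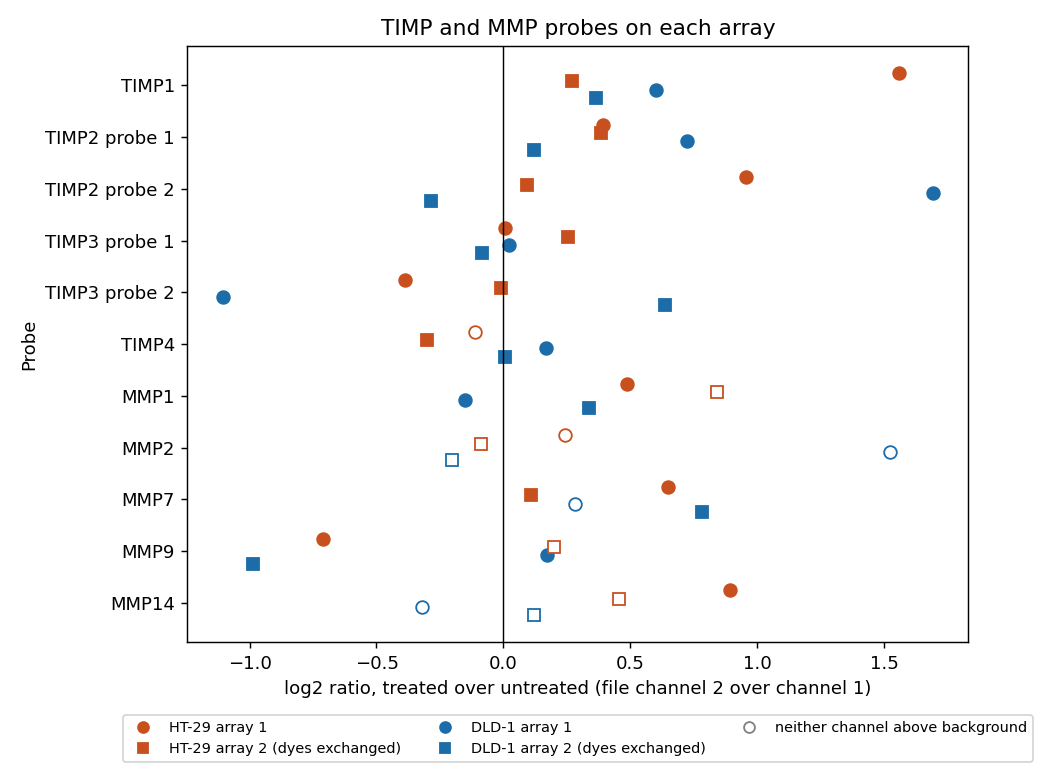
Log2 ratio of treated over untreated signal (horizontal axis) for each of the 11 probes, with 1 point per array, circles for array 1 and squares for array 2 of HT-29 (orange) and DLD-1 (blue), file channel 2 read as treated, and open symbols where neither channel was above background. TIMP1 and MMP7 lie right of 0 on 4 arrays, while TIMP2 probe 2 and TIMP3 probe 2 are widely spread between the 2 DLD-1 arrays.

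MMP7, the epithelial matrilysin, had the clearest pattern of the proteases, and it lay between the lines more than between treatments. In HT-29 the intensity of its probe, AGhsB110605, was 6482 in treated and 4265 in untreated cells on array 1, and 7264 in treated and 6239 in untreated cells on array 2. In DLD-1 it was 624 in treated and 456 in untreated cells on array 1, neither above background, and 888 in treated and 296 in untreated cells on array 2, both above background. The level, here the normalised log2 signal averaged over both channels of an array, was 12.82 and 12.40 on the HT-29 arrays and 9.04 and 9.01 on the DLD-1 arrays. The lines did not overlap. The difference of HT-29 minus DLD-1 was 3.59 log2 units as measured, 12.0-fold, from 12.61 ± 0.30 in HT-29 and 9.02 ± 0.02 in DLD-1 (SD, n = 2 hybridisations of 1 replicate each). There is no test of this difference because each line is 1 replicate.

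With no filter on dim spots, a difference of at least 2-fold toward HT-29 was found for 9.56% of the 12996 named genes without a bad spot. Both HT-29 arrays lay above both DLD-1 arrays for 12.8%. MMP7 was the only member past either limit. MMP7 did not pass the filter on DLD-1 array 1, so its level difference is given without the filter, a setting chosen after seeing the data. The 95th percentile of the negative control spots was 9.54 and 9.27 on the HT-29 arrays and 10.03 and 9.0 on the DLD-1 arrays, so MMP7 in DLD-1 lay below it on 1 array and beside it on the other. The size of the fold therefore rests on a DLD-1 signal near background and is not exact. This level does not depend on which channel held treated RNA. The difference was between 3.17 log2 units with block medians set to 0 and 4.42 with the deposited background-subtracted intensities, and it was between 3.38 and 3.80 when 1 array was left out.

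MMP7 ratios of treated over untreated were 0.65 and 0.11 on the HT-29 arrays and 0.28 and 0.78 on the DLD-1 arrays. They averaged 0.38 ± 0.38 in HT-29 and 0.53 ± 0.36 in DLD-1 (SD, n = 2 hybridisations), and in the labels' order 0.27 and -0.25. Without the filter on dim spots the mean over both lines was 0.46, SE 0.238, with an adjusted p of 0.999 by limma. The treated signal was thus above the untreated one on 4 arrays under 1 reading only.

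MMP9, the gelatinase that degrades basement membrane collagen, ran the other way between the lines. Its probe was AGhsA131001, with an intensity of 179 in treated and 575 in untreated cells on HT-29 array 1 and of 580 in treated and 278 in untreated cells on HT-29 array 2, where neither was above background. In DLD-1 it was 1262 in treated and 831 in untreated cells on array 1, and 742 in treated and 1003 in untreated cells on array 2. The level was 9.27 and 7.35 on the HT-29 arrays and 10.06 and 9.53 on the DLD-1 arrays. The lines did not overlap, with a difference of -1.49 log2 units as measured. Both HT-29 values lay below the 95th percentile of the negative control spots, so no fold is given. A difference of at least 2-fold in that direction was found for 12.7% of genes, and both HT-29 arrays lay below both DLD-1 arrays for 21%. The MMP9 difference was -0.52 without HT-29 array 2, -2.45 without HT-29 array 1 and -4.96 with the deposited background-subtracted intensities. Its treatment ratios were -0.71 and 0.20 on the HT-29 arrays and 0.17 and -0.99 on the DLD-1 arrays, and the line means of -0.26 and -0.41 became -0.45 and 0.58 in the labels' order.

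MMP1, the interstitial collagenase, was above background on 3 of 4 arrays. Its probe, AGhsC071418, had an intensity of 1295 in treated and 1113 in untreated cells on HT-29 array 1, and of 656 in treated and 243 in untreated cells on HT-29 array 2, where neither was above background. In DLD-1 it was 920 in treated and 788 in untreated cells on array 1, and 1143 in treated and 670 in untreated cells on array 2. The log2 ratios were 0.49 and 0.84 on the HT-29 arrays and -0.15 and 0.34 on the DLD-1 arrays. In the labels' order both line means were negative, -0.18 in HT-29 and -0.24 in DLD-1.

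MMP2, the other gelatinase, was not above background in any channel of any array. Intensities of its probe, AGhsA090922, were 202 and 422 in treated and 388 and 209 in untreated HT-29 cells, and 269 and 475 in treated and 253 and 130 in untreated DLD-1 cells. Its ratio of 1.52 on DLD-1 array 1 comes from channels that were both at background and gives no fold. MMP14, the membrane-bound activator of MMP2, passed the limit in 1 channel only, treated HT-29 cells of array 1, at an intensity of 546 over a local background of 188, against 548 over 500 in untreated cells. The level of MMP14 was 9.34 and 7.97 on the HT-29 arrays and 8.97 and 8.44 on the DLD-1 arrays, which overlap. Signal of MMP2 was not detectable with these spots, which says nothing of lower amounts of its RNA.

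Of the 9 members, 3 passed the filter for the test over both lines, namely TIMP1, TIMP2 and TIMP3, and the other 6 did not. With limma at an adjusted p of 0.05, 0 of the 3 members were called, and 2 of them had an unadjusted p under 0.05. Over all 9102 genes 17 were called higher in treated cells, 0.187%, and 4 lower, 0.0439%, while 456 had an unadjusted p under 0.05. At such background shares a count of 0 among 3 does not set the members apart. With file channel 2 read as treated, a positive ratio on 4 arrays was found for 4.31% of genes tested and for 1 of the 3 members, TIMP1. No member probe was at least 2-fold higher on both arrays of a line, against 0.115% of probes in HT-29 and 0.113% in DLD-1. No member probe reached 2-fold on array 2 of either line in either direction, so the reading of array 2 does not bear on that count.

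When DLD-1 array 2 was left out, TIMP1 averaged 0.76 with an adjusted p of 0.0335 by limma, and TIMP2 averaged 0.83 with an adjusted p of 0.0180. With that array left out 258 genes were called higher and 99 lower, so calls rose over all genes as well. Without DLD-1 array 2 that line rests on 1 array with treated RNA in Cy5, where dye and treatment cannot be told apart. Without HT-29 array 1 TIMP1 was 0.38, and without DLD-1 array 1 TIMP2 was 0.19. TIMP1 and TIMP2 were positive under each of the 11 alternatives, while TIMP3 was positive in 4 and negative in 7.

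**Figure D3:**
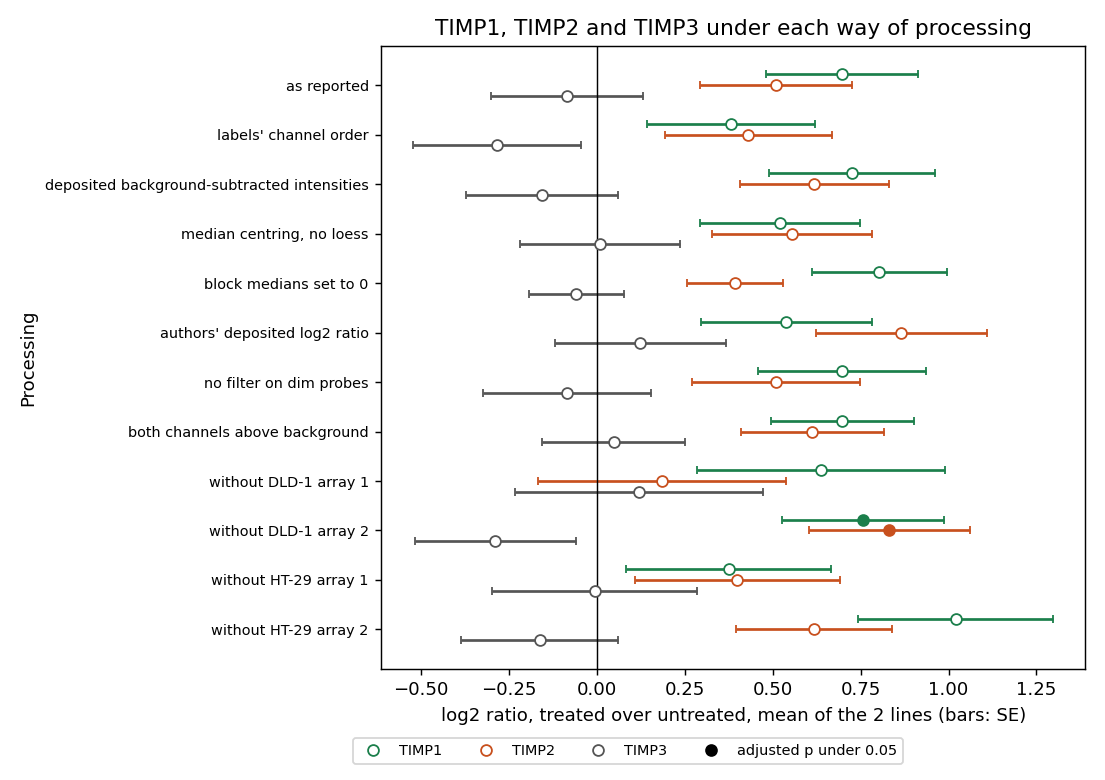
Mean log2 ratio of treated over untreated over both lines (horizontal axis, bars are SE) for TIMP1 (green), TIMP2 (orange) and TIMP3 (grey) under each way of processing, with filled symbols where limma's adjusted p was under 0.05. TIMP1 and TIMP2 lie right of 0 throughout and are filled in 1 row, the one without DLD-1 array 2, and TIMP3 lies on both sides of 0.

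TIMP1, TIMP2 and TIMP3 were the members with at least 1 channel above background on both arrays of both lines. TIMP1 stood at 12.37 and 13.18 on the HT-29 arrays and at 12.66 and 12.57 on the DLD-1 arrays, which overlap. TIMP2, averaged over its probes, stood at 10.74 and 9.70 on the HT-29 arrays and at 11.02 and 10.75 on the DLD-1 arrays. The difference was -0.67, and the lines were barely apart, at 10.74 against 10.75. Probe 1 alone overlapped, at 11.14 and 8.53 on the HT-29 arrays and 10.75 and 10.24 on the DLD-1 arrays. Over all genes both HT-29 arrays lay below both DLD-1 arrays for 21%. The TIMP2 difference was -0.15 without HT-29 array 2, -1.19 without HT-29 array 1 and -1.05 with the deposited background-subtracted intensities. TIMP3 stood at 10.53 and 10.93 on the HT-29 arrays and at 10.82 and 11.39 on the DLD-1 arrays, and these overlap. TIMP4, MMP1, MMP2 and MMP14 overlapped between the lines as well. Among the 3 TIMPs the difference of HT-29 minus DLD-1 was 0.17 for TIMP1, which became -0.36 with median centring, -0.38 for TIMP3 and -0.67 for TIMP2. Arrays of the same line differed by at least 2-fold for 43.3% of genes in HT-29 and 29.4% in DLD-1, so a 2-fold difference in level is common without a change of line.

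**Figure D4:**
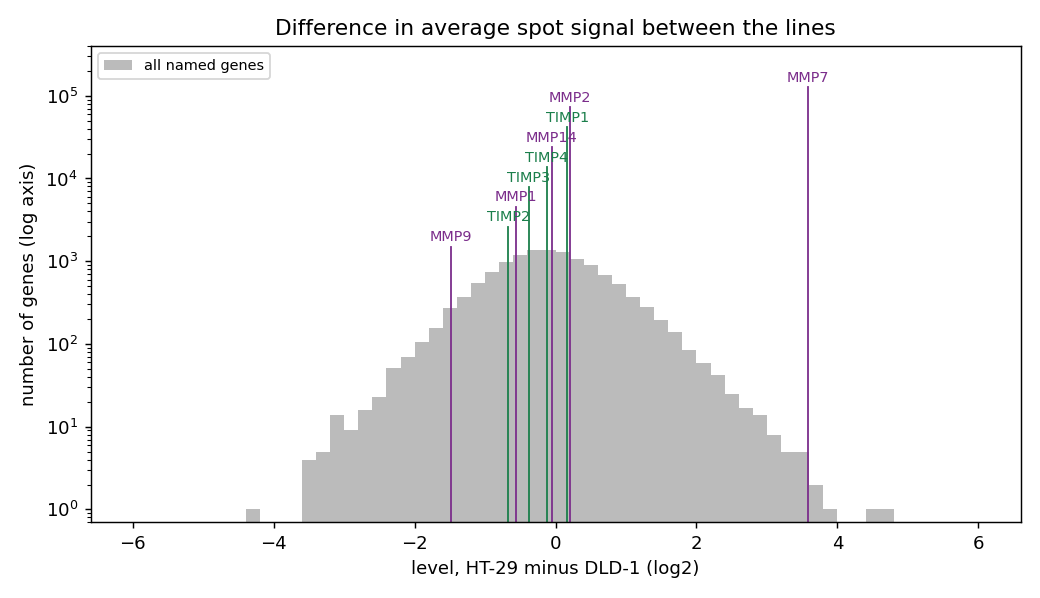
Number of genes (vertical log axis) by difference in level, HT-29 minus DLD-1, in log2 units (horizontal axis) for the 12996 named genes, with coloured lines at the TIMPs (green) and MMPs (purple) whose heights only set the names apart. MMP7, at 3.59, lies in the right tail, MMP9 at -1.49 on the left shoulder and the other 7 members near the middle, with MMP2 not above background on any array.

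Likeness to TIMP1 was measured as the Euclidean distance over the log2 ratios of the 4 arrays. TIMP1 was the tested member with 1 sign on 4 arrays, with file channel 2 read as treated. The nearest genes were ATG101 at 0.289, ABCG2 at 0.295 and NRN1 at 0.398, and 9 genes lay within 0.5. ATG101, an autophagy gene, had 1.5 and 0.16 on the HT-29 arrays and 0.35 and 0.46 on the DLD-1 arrays. ABCG2, a drug efflux transporter, had 1.40 and 0.41 on the HT-29 arrays and 0.65 and 0.17 on the DLD-1 arrays. NRN1, a neuritin, had 1.21 and 0.35 on the HT-29 arrays and 0.54 and 0.53 on the DLD-1 arrays. These 3 were picked for nearness to TIMP1, so their high value on HT-29 array 1 follows from that choice.

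Other genes of matrix proteolysis were taken from lists named for their role. Of 18 other MMPs 14 were on the array and 11 were tested, with 0 called by limma, 1 at an unadjusted p under 0.05, and a median log2 ratio of -0.11 beside 0.0073 for all genes. The lowest were MMP8, the neutrophil collagenase, at -0.42, MMP24 at -0.28 and MMP23B at -0.28, and the highest were MMP10, or stromelysin 2, at 0.17, MMP27 at 0.06 and MMP28 at -0.01. Within the run of MMP genes on chromosome 11, MMP20, MMP27, MMP8, MMP10 and MMP3 were above background in both channels of every array. Their levels differed, HT-29 minus DLD-1, by 0.30 for MMP20, -0.55 for MMP27, 0.33 for MMP8, -0.46 for MMP10 and 0.42 for MMP3. MMP12 and MMP13 were not above background in any DLD-1 channel, and no difference is given for them.

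Of 20 ADAM and ADAMTS proteases, relatives of the MMPs that TIMP3 can inhibit in part, 12 were tested, 0 were called by limma, 1 had an unadjusted p under 0.05, and the median was 0.08. ADAM28 at 0.49, ADAMTS3 at 0.22 and ADAM8 at 0.19 were the highest, and ADAM19 at -0.28, ADAMTS12 at -0.19 and ADAMTS4 at -0.18 the lowest. Of 20 regulators of proteolysis 11 were tested, with 0 called by limma, 0 at an unadjusted p under 0.05, and a median of 0.03. THBS1, or thrombospondin 1, and LCN2, a lipocalin that binds MMP9, both stood at 0.29, and THBS2 at 0.24. PLAU, the urokinase that activates plasminogen, stood at -0.37, the hyaluronan receptor CD44 at -0.30 and ITGAV at -0.29. Of 28 matrix substrates 25 were tested, with 0 called by limma, 0 at an unadjusted p under 0.05, and a median of -0.03. The collagen-binding proteins SPARC and DCN stood at 0.33 each and TNC at 0.30, and among the lowest COL18A1 stood at -0.30 and COL6A1 at -0.29.

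Transcription factors known to act on MMP promoters gave 12 tested genes of 19, with 0 called by limma, 0 at an unadjusted p under 0.05, and a median of -0.02. NFKB1 at 0.30, STAT3 at 0.14 and FOSB at 0.07 were the highest, and RELA at -0.32, ETS2 at -0.29 and FOS at -0.10 the lowest. The AP-1 subunits JUN, JUND and FOSL2 were not above background in both channels of both arrays of either line. In the labels' order the medians of these 5 lists lay at -0.11 for other MMPs, 0.04 for ADAM and ADAMTS proteases, -0.10 for regulators, 0.08 for substrates and 0.01 for transcription factors, beside 0.05 for all genes. Some named genes changed sign in that order, with COL6A1 at 0.55, COL18A1 at 0.17, SPARC at -0.27, ADAM8 at -0.26, THBS1 at -0.10 and MMP10 at -0.10. Others kept theirs, such as MMP8 at -0.39 and ADAM28 at 0.46. The direction of the named list genes is therefore not settled.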

How the data were processed

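The authors deposited, per the file headers, scanner intensities with local background and its SD for both channels, and a log2 ratio of channel 1 over channel 2. In the series table every value equals minus that log2 ratio (tolerance 1e-04), and each array's median is 0. The scanner is not given in the sources used here. Values were recomputed from the deposited intensities in R 4.3.3 with limma 3.58.1, by normexp (offset 50) and loess within each array, leaving control and bad spots without weight. Levels also had Aquantile normalisation between arrays. Probes entered the test if each array had 1 or both channels above background, and probes of a gene were averaged. After averaging the arrays of each line, the 2 means were set against 0 in a two-sided limma fit (lmFit, eBayes), and p-values were adjusted by Benjamini-Hochberg over all genes. limma took 1 variance for all genes, and an exact sign-flip test over 2 lines cannot go below p = 0.5. No test was possible within a line or between lines.

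Names came from the platform table (14200 probes with 1 symbol, 447 with several, which were not named) and, for 1394 probes, from the file descriptions. Promoters of 5 of 9 members are from RefSeq, GRCh38.p14. All members were named. For each list, the 3 highest and 3 lowest means, any called gene and any gene at least 2-fold on both arrays of a line were chosen to be named, and 1 of these genes is not reported here. Members and lists were chosen with earlier results of these data known. Only the line averaging and the limma fit were tested on simulated arrays. Those arrays were independent of each other and had no dye, block or background effects, so that test does not bear on the calls here. Alternatives were the labels' channel order, deposited background-subtracted intensities, median centring, block medians set to 0, the deposited ratio, no filter, both channels above background and each array left out. For levels, removing the filter and setting block medians to 0 were chosen after seeing the data.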

Additional observations from a re-analysis of the deposited data

Results flagged for a closer look

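For 6 named genes both HT-29 arrays had ratios of 1 sign and both DLD-1 arrays the other, with file channel 2 read as treated and no filter on dim spots. Each line is 1 replicate and the difference was not tested. Over all genes 1201 of 12996, or 9.24%, had such opposite signs. In the labels' channel order array 2 of each line turns its sign, so none of the 6 would keep this pattern. Among the members this held for TIMP4, with a difference of HT-29 minus DLD-1 of -0.29 log2 units, from -0.21 in HT-29 and 0.09 in DLD-1, and its HT-29 array 1 was not above background in either channel. For KRT20, a keratin of differentiated intestinal epithelium, the difference was 2.03, from 1.70 in HT-29 and -0.33 in DLD-1. KRT20 was also at least 2-fold higher in treated cells on both HT-29 arrays, at 2.26 and 1.14. For MMP28, or epilysin, it was 0.73, from 0.35 in HT-29 and -0.38 in DLD-1. For EPCAM, an epithelial adhesion molecule, it was -0.65, from -0.21 in HT-29 and 0.44 in DLD-1. For FOSB it was 0.58, from 0.36 in HT-29 and -0.22 in DLD-1. For STAT3 it was 0.36, from 0.20 in HT-29 and -0.16 in DLD-1 over all its probes, whereas over the probes that passed the filter the 2 DLD-1 arrays had opposite signs, 0.07 and -0.35.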

How the results depend on the processing

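Over both lines 17 genes were called higher and 4 lower by limma. The counts of higher and lower calls were 57 and 2 in the labels' channel order, 0 and 0 with the deposited background-subtracted intensities (339 genes at an unadjusted p under 0.05), 4 and 0 with block medians set to 0 (421 at an unadjusted p under 0.05), 33 and 7 without the filter and 10 and 1 with both channels above background. Lower calls were 2 with median centring and 0 with the authors' deposited ratio (317 genes of either direction at an unadjusted p under 0.05). With 1 array left out they ranged from 5 to 258 higher and from 0 to 99 lower. Probes at least 2-fold higher and lower on both arrays numbered 26 and 3 in HT-29 and 24 and 2 in DLD-1. In HT-29 they became 69 and 1 in the labels' order, 61 and 37 with background-subtracted intensities, 11 and 5 with block medians set to 0 and 41 and 15 without the filter, with 16 higher by the deposited ratio and 15 with both channels above background. In DLD-1, 78 were higher in the labels' order, 64 and 17 were higher and lower with background-subtracted intensities, 65 and 6 without the filter and 9 and 0 with both channels above background, and 1 was lower by the deposited ratio. On a single array the counts ranged from 481 to 1100 higher and from 267 to 537 lower in HT-29, and from 562 to 625 higher and from 353 to 1066 lower in DLD-1.

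Members called ranged from 0 to 2 with 1 array left out, the 2 being TIMP1 and TIMP2 without DLD-1 array 2, where TIMP1 was 0.76. TIMP1 ranged from 0.38 to 1.02 with 1 array left out, and its adjusted p by limma ranged from 0.0335 to 0.9999 over 11 alternatives. MMP7's level difference of 3.59 became 4.42 with background-subtracted intensities and 3.17 with block medians set to 0. The causes of these shifts were not tested. Each ratio already pairs treated with untreated RNA within 1 array. No further pairing was modelled, because the labels carry no replicate numbers that could serve as a block. Signal over background limits TIMP4, MMP1, MMP2, MMP7 in DLD-1, MMP9 in HT-29 and MMP14.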
